A study of Mus musculus with 8 samples.

Results

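The 10 S100 genes described here are S100a1, S100a3, S100a4, S100a5, S100a6, S100a10, S100a11, S100a13, S100a16 and S100b, the members of the S100 family of calcium-binding proteins apart from the neutrophil pair S100a8 and S100a9. They were chosen by name, with earlier results of these data known, and are 10 of the 43346 gene identifiers counted. Their mRNA abundance was followed in notochord-derived cells (NDCs) at E12.5 (embryonic day 12.5) and at P0 (the day of birth), the start and the end of the change from notochord to nucleus pulposus (NP). All animals were of the Shh-cre;ROSA:YFP line. In this line, cre recombinase driven from the Shh locus turns on YFP in Shh-expressing cells and in all of their progeny, and both stages carry the same alleles. Each of the 4 E12.5 samples (litters NDP10-2, NPD3, NPD4 and NPD9-2) was total RNA from notochords dissected intact and put into TRIzol. Each of the 4 P0 samples (litters NPD26, NPD27, NPD28 and NPD30) was total RNA from NP cells that were shaken loose and sorted for YFP. The animals of a litter were pooled, so the unit of replication is the litter, and the effects of stage and of the way cells were isolated cannot be told apart.

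S100 proteins are small EF-hand proteins, most of which form dimers that open on binding calcium and then attach to a target protein. Inside cells their targets include annexins, cytoskeletal proteins, ion channels and transcription factors, while several members are also released and act on receptors such as RAGE, the product of Ager. S100b is long used as a marker of glia and of cartilage cells, and S100 staining is also known from notochordal tissue. Most S100 genes lie together in a cluster, which in the mouse is on chromosome 3, and S100b lies apart from it.

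The E12.5 litters held 4442775 to 7180221 counts each and the P0 litters 6371842 to 8904050. Abundance of a gene is given as CPM on TMM library sizes, and 3 counts, taken here as the detection floor, equal 0.353 to 0.738 CPM on that scale. That floor covers counting error only. Summed CPM of marker lists use the total counts on genes of each litter instead, so they are on another scale. None of the 7 notochord marker genes was at 0 throughout a stage, and their summed abundance was 1054 to 2886 CPM in the E12.5 litters and 997 to 4034 CPM in the P0 litters. That sum does not show markers that moved apart, and the paper reports Shh lower and Krt19 higher at P0. Markers of other cells differed between the stages. The 14 leukocyte markers summed to 97.3 to 153 CPM before birth and to 534 to 4626 CPM after it, with litter NPD30 the lowest of the P0 litters. Every E12.5 litter had higher sums of erythroid and sclerotome markers than any P0 litter, and every P0 litter had higher sums of osteoblast and dissociation stress genes. At E12.5, litter NPD4 stood apart with 2230 CPM of neural markers, against 118 to 159 CPM in the other E12.5 litters.

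S100a6, S100b and S100a4 were higher at P0 compared to E12.5, and none of the 10 genes was called lower. S100a6, which codes for calcyclin, was 5.83-fold higher, S100b 3.78-fold higher and S100a4, a regulator of non-muscle myosin, 13.7-fold higher from near-absent levels. Of the 10 genes, 8 were abundant enough to be tested, and 3 of these passed an adjusted p of 0.05 (edgeR quasi-likelihood F-test with Benjamini-Hochberg adjustment over 15467 genes). Of all genes tested, 16% were higher and 12% were lower by the same rule, or 27.9% in either direction. In the same 3 genes every P0 litter lay above every E12.5 litter, which was the case for 15.5% of all genes tested, while the reverse was the case for 14.4%. The log2 fold change was positive in 7 of the 8 genes, with a median of 0.83, against 0.04 over all genes tested. S100a4 entered the test through its P0 litters alone, since none of the 4 E12.5 litters exceeded the abundance the filter asks for. S100a3 and S100a5 were too low to be tested. Because whole samples were sequenced, a change in the share of a cell type and a change in RNA per cell cannot be told apart for any of these genes.

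**Figure D1:**
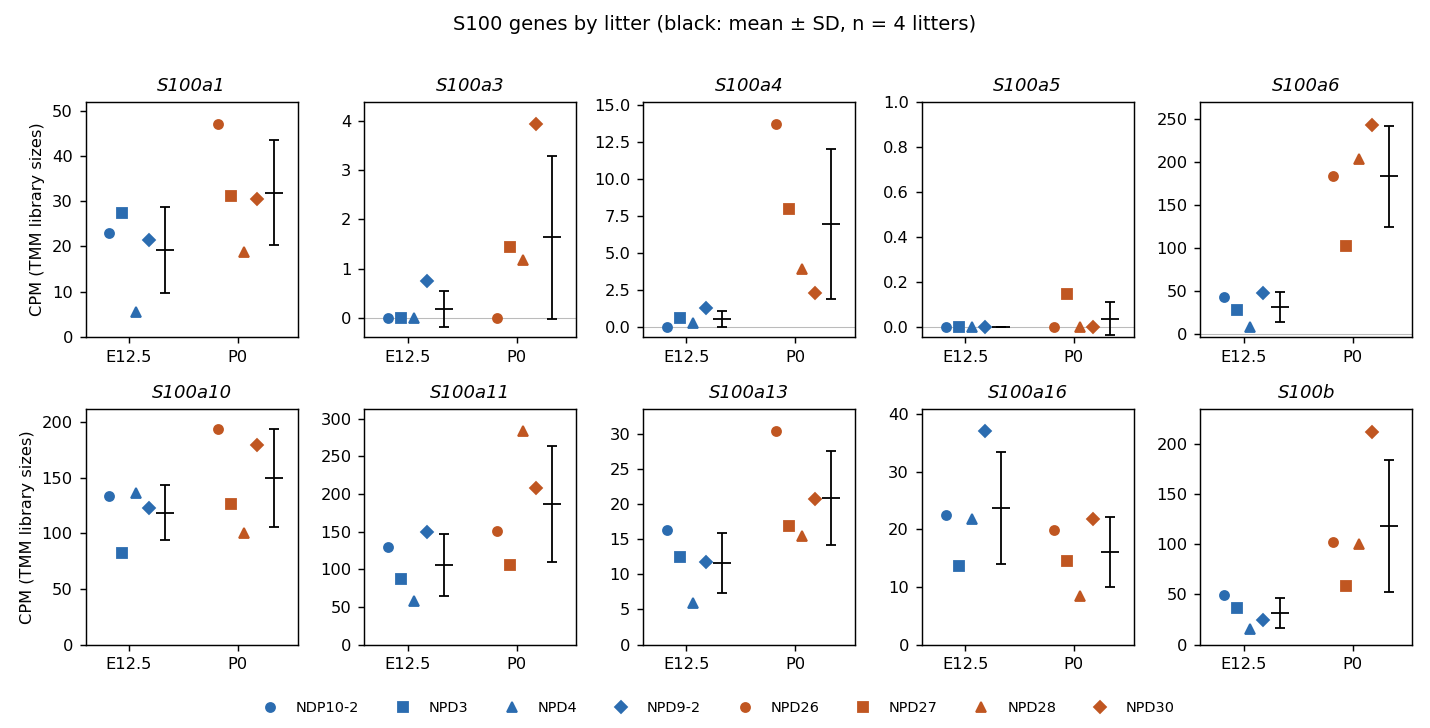
mRNA abundance of the 10 S100 genes in CPM (vertical axes, separate scales) in each E12.5 litter (blue) and P0 litter (orange), with marker shape giving the litter and black lines the mean ± SD of the 4 litters. For S100a4, S100a6 and S100b every P0 litter lies above every E12.5 litter, whereas the stages overlap in the other genes.

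S100a6 lies on the plus strand at chr3:90612882-90624181 (GRCm38). Calcyclin binds annexin A11 and the ubiquitin ligase adaptor CacyBP, and its gene is induced in proliferating cells. Its RefSeq promoter window (GRCm38.p6, plus strand, chr3:90612644-90612881, the 238 bases ahead of the Gencode start) is shown because this gene had the smallest p of the 8 tested. Capitals mark a CCAAT box on the opposite strand, read as ATTGG.
S100a6: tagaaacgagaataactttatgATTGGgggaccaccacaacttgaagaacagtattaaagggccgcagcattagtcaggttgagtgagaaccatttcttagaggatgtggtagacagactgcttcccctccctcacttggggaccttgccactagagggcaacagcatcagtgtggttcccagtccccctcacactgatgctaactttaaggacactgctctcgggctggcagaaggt
The search covered 300 bases, from 250 before to 50 after the RefSeq start. Over that length CCAAT was found on either strand in 37.4% of 32851 promoters, and for S100a6 neither the TATA box core TATAAA nor the GC box GGGCGG nor the AP-1 motif TGANTCA was found. The abundance of S100a6 at E12.5 was 42.7 CPM in NDP10-2, 27.5 in NPD3, 8.46 in NPD4 and 47.7 in NPD9-2. At P0 it was 183 CPM in NPD26, 103 in NPD27, 203 in NPD28 and 243 in NPD30. The lowest P0 litter thus lay well above the highest E12.5 litter, and NPD4 was the lowest sample of all. Averaged over litters it rose from 31.6 ± 17.7 to 183 ± 59.0 CPM (SD, n = 4 per stage), a log2 fold change of 2.54 (SE 0.49, 95% interval 1.46 to 3.63, edgeR adjusted p = 0.0038). With each litter left out in turn the log2 fold change ranged from 2.22 to 2.78 and the gene passed in 8 of 8 fits. With NPD30, the P0 litter lowest in leukocyte markers and highest in S100a6, as the sole P0 sample, the log2 fold change was 3.01. That fit was chosen after seeing the data and holds no spread between P0 litters. Without both NDP10-2 and NPD9-2 the log2 fold change was 3.32 (edgeR adjusted p = 0.0174).

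S100b lies away from the cluster, on the plus strand at chr10:76253853-76261159. The protein is kept at high levels in glia and chondrocytes, binds p53 inside cells and signals through RAGE when released. Its promoter window (GRCm38.p6, plus strand, chr10:76253586-76253835, the 250 bases before the RefSeq start) holds CCAAT boxes in both orientations, marked in capitals, and it is given beside that of S100a6 because both genes rose.
S100b: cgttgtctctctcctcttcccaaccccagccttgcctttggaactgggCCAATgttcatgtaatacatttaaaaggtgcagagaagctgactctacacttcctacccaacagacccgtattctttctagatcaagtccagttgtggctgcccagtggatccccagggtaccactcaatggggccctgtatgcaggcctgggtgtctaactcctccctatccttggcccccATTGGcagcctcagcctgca
The other 3 motifs were not found in it. S100b was at 49.5 CPM in NDP10-2, 36.5 in NPD3, 15.2 in NPD4 and 24.1 in NPD9-2 at E12.5. At P0 it was at 102 CPM in NPD26, 58.4 in NPD27, 100.5 in NPD28 and 212 in NPD30. The stages did not overlap, although NPD27 came close to the highest E12.5 litter, and NPD30 was the highest sample. Averaged over litters it rose from 31.3 ± 14.9 to 118 ± 65.7 CPM (SD, n = 4), a log2 fold change of 1.92 (SE 0.45, 95% interval 0.92 to 2.92, edgeR adjusted p = 0.00964). It passed in 8 of 8 fits with a litter left out, in which the log2 fold change ranged from 1.44 to 2.19. Without NDP10-2 and NPD9-2 together, the E12.5 litters with the fewest reads on genes and the most erythroid RNA, it was 2.16 with an adjusted p of 0.0548, so the call was lost. With NPD30, the P0 litter highest in S100b, as the only P0 litter it was 2.82, in a fit without spread between P0 litters.

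Within each stage, S100b and S100a6 were lowest where notochord and cartilage markers were lowest. The same held for S100a11, at 58.2 CPM in NPD4 and 105 CPM in NPD27. The summed notochord markers were 2886, 2868, 1054 and 1222 CPM in NDP10-2, NPD3, NPD4 and NPD9-2, which is the order of the litters by S100b but not by S100a6, which was highest in NPD9-2. In NPD26, NPD27, NPD28 and NPD30 they were 1871, 997, 2089 and 4034 CPM, the order of the litters by S100a6, whereas S100b put NPD26 just above NPD28. The 8 chondrocyte markers were likewise lowest in NPD4 at E12.5, with 2731 CPM, and in NPD27 at P0, with 2020 CPM, and highest in NPD30, with 8902 CPM. Markers of Schwann and neural crest cells, another known source of S100b, summed to 638, 842, 87.5 and 104 CPM in NPD26, NPD27, NPD28 and NPD30. They were highest in NPD27, where S100b was lowest. The part of any of these cells in the levels of S100b, S100a6 and S100a11 was not tested.

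S100a4 (chr3:90603771-90606045, plus strand), known as metastasin or fibroblast-specific protein, binds non-muscle myosin IIA and is expressed by fibroblasts and by macrophages. Its promoter window (GRCm38.p6, plus strand, chr3:90603520-90603769, the 250 bases before the RefSeq start) is shown because it alone of the S100 windows searched held TATAAA, in capitals, on its own strand between 40 and 20 bases before the start.
S100a4: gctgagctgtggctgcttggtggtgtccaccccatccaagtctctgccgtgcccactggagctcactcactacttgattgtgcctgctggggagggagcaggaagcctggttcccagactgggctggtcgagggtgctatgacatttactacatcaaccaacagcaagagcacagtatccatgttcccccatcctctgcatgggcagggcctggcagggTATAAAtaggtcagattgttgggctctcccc
That match was present at this place in 1.99% of the 32851 promoters, and TATAAA was present anywhere and on either strand in 13.6%. The litters NDP10-2, NPD3, NPD4 and NPD9-2 held 0, 3, 2 and 5 counts of S100a4, so NDP10-2 and NPD4 lay below the detection floor, NPD3 on it and NPD9-2 just above it. At P0, NPD26 held 87 counts, NPD27 55, NPD28 33 and NPD30 15, or 13.7, 7.93, 3.89 and 2.27 CPM. Every P0 litter exceeded every E12.5 litter, but the P0 litters spread over a wide range, with NPD26 highest and NPD30 lowest. Averaged over litters it rose from 0.514 ± 0.534 to 6.94 ± 5.08 CPM (SD, n = 4), a log2 fold change of 3.78 (SE 0.86, 95% interval 1.89 to 5.66, edgeR adjusted p = 0.00755). It passed in 8 of 8 fits with a litter left out, with log2 fold changes from 3.22 to 4.49, the last without NPD9-2. S100a4 entered the test through its P0 litters alone, so these passes are not independent support for its rise. With E12.5 counts near the floor, the size of the change is uncertain. The 9 macrophage markers summed to 7034, 7876, 3589 and 310 CPM in NPD26, NPD27, NPD28 and NPD30, and were 85.1 to 178 CPM at E12.5. With NPD30, the P0 litter lowest in S100a4, as the only P0 litter the log2 fold change of this gene was 2.19. That fit, too, holds no spread between P0 litters. The 7 fibroblast and tendon markers had lower sums at P0, 60.5 to 109 CPM against 157 to 241 CPM at E12.5, and were highest among P0 litters in NPD30. The part of macrophages or fibroblasts in the level of S100a4 was not tested. In Gencode M21, 302 exon bases of S100a4 also belong to Gm42674, a gene on the same strand that is not among the counted genes.

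The annexin partners S100a10 and S100a11 were the most abundant of the 10 genes per length of exon at E12.5, and neither passed the test. S100a10 (p11; chr3:93555080-93564643) differs from its relatives in that it no longer binds calcium, and it forms a tetramer with annexin A2 that carries ion channels and plasminogen to the cell surface. It was at 134, 82.2, 136 and 123 CPM in NDP10-2, NPD3, NPD4 and NPD9-2, and at 194, 126, 100.5 and 179.5 CPM in NPD26, NPD27, NPD28 and NPD30. The ranges of the stages overlapped, with NPD27 and NPD28 inside the E12.5 range. Its log2 fold change was 0.34 (SE 0.27, 95% interval -0.26 to 0.94, adjusted p = 0.393), the smallest in size of the 8 genes tested. S100a11 (chr3:93520488-93526287), a partner of annexin A1 that acts in membrane repair and in the growth control of keratinocytes and chondrocytes, was more variable. At E12.5 it was at 129.7, 86.8, 58.2 and 149 CPM in the same order of litters, and at P0 at 151, 105, 283.5 and 208 CPM. Only NPD27 fell inside the E12.5 range. The log2 fold change was 0.82 (SE 0.37, 95% interval 0.02 to 1.63) with an adjusted p of 0.119, and without the filter on low counts, which changes the set of genes adjusted over, the adjusted p was 0.042. The processed pseudogene S100a11-ps, with which reads could be shared, had 0 counts in all 8 litters. Whether reads that fit both S100a11 and the pseudogene were left uncounted was not tested.

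S100a1 and S100a13 start next to each other on chromosome 3 and run apart, S100a1 on the minus strand (chr3:90511034-90514392) and S100a13 on the plus strand (chr3:90514435-90524581). S100a1 is best known from heart and skeletal muscle, where it regulates ryanodine receptors and the calcium pump SERCA, and S100a13 takes part in the release of FGF1 and interleukin 1α by cells under stress. The 42 bases between their Gencode starts (GRCm38.p6, plus strand, chr3:90514393-90514434) are shown because they are the whole of the space the genes share, and none of the 4 motifs was found in them, so no base is in capitals.
S100a1 to S100a13: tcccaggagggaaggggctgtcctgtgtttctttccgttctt
S100a1 was at 22.9, 27.3, 5.44 and 21.4 CPM in NDP10-2, NPD3, NPD4 and NPD9-2, and at 47.0, 31.2, 18.7 and 30.5 CPM in NPD26, NPD27, NPD28 and NPD30. S100a13 was at 16.3, 12.5, 5.92 and 11.8 CPM at E12.5 and at 30.4, 16.9, 15.4 and 20.6 CPM at P0. Both genes were lowest in NPD4 and highest in NPD26, and at P0 both were lowest in NPD28. For S100a13 only NPD28 fell inside the E12.5 range, with an abundance just under that of NDP10-2. The log2 fold change was 0.85 for S100a13 (SE 0.36, 95% interval 0.06 to 1.64, adjusted p = 0.102) and 0.73 for S100a1 (SE 0.45, 95% interval -0.26 to 1.73, adjusted p = 0.258). Neither passed, and the intervals of both reached past a log2 change of 1.

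S100a16, a widely expressed member, was the only one of the 8 tested with a lower mean at P0. It was at 22.4, 13.7, 21.8 and 37.1 CPM at E12.5 and at 19.8, 14.4, 8.36 and 21.8 CPM at P0, in the order of litters used above, so the stages overlapped. The log2 fold change of -0.56 (SE 0.38, 95% interval -1.39 to 0.27, adjusted p = 0.303) did not pass. S100a3, known from the hair cuticle, had no count in 3 E12.5 litters and 3 counts in NPD9-2, and at P0 it had 0, 10, 10 and 26 counts in NPD26, NPD27, NPD28 and NPD30. NPD30 was the one litter that reached the abundance the filter asks for. In Gencode M21 the exons of S100a3 share 117 bases with Gm23464 on the opposite strand, and its low counts are uncertain for that reason too. S100a5, known from olfactory sensory neurons, had 1 count in NPD27 and none in the other 7 litters, so it was not detectable at this depth.

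**Figure D2:**
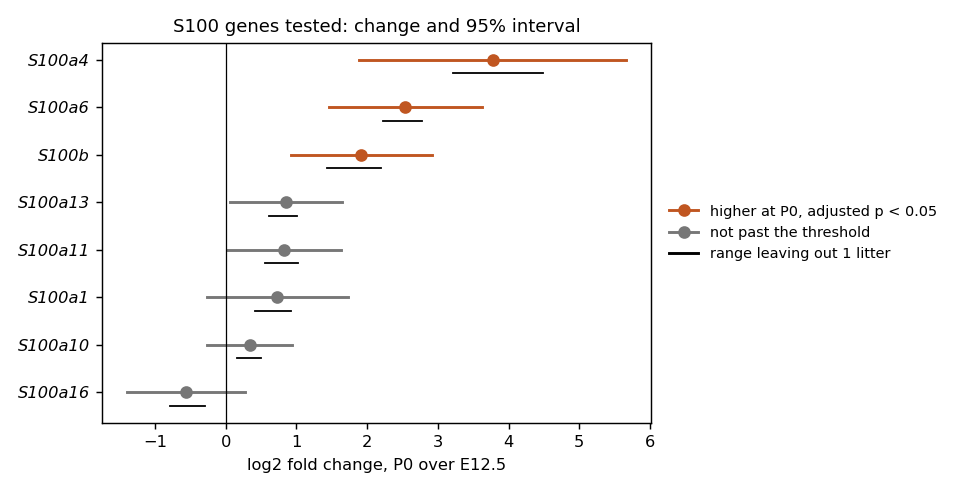
Log2 fold change of P0 over E12.5 (horizontal axis) for the 8 S100 genes tested, with points for the edgeR estimate, coloured bars for its 95% interval and thin black bars for the range when each of the 8 litters was left out in turn. The intervals of S100a4, S100a6 and S100b start at 1.89, 1.46 and 0.92, and that of S100a16 runs from -1.39 to 0.27.

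Compared per length, as CPM per kilobase of exon, S100a11 led at both stages, with a mean of 207 ± 80.5 at E12.5 and 366 ± 151 at P0 (SD, n = 4). At E12.5 S100a10 followed with 98.02 ± 20.7, and its litters overlapped neither those of S100a11 nor those of the next gene, S100a1. From S100a1 (27.8) through S100a6 (23.1), S100b (21.1) and S100a13 (16.3) to S100a16 (14.7), the litters of each gene overlapped those of the next in order. S100a4 (0.880) lay below all of these without overlap. At P0 S100a6 stood second with 134 ± 43.1, ahead of S100a10 (124), S100b (79.7), S100a1 (45.9), S100a13 (29.1), S100a4 (11.9) and S100a16 (9.96) CPM per kilobase. Each neighbour in that order from S100a6 to S100a16 overlapped the next. S100a11 lay apart from the rest at the top, and S100a3 (0.290) and S100a5 (0.0835) at the bottom. Genes further apart in the order could also be separate. The lowest litters of S100a6 (75.21) and S100a10 (82.95) exceeded the highest of S100a1 (67.75). This order depends on the length used, which is the union of exons in Gencode M21 and not the length of a transcript. In plain CPM, the E12.5 mean was higher for S100a10 (119) than for S100a11 (106). The P0 means of S100a6 (183) and S100a11 (187) were then close.

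The make-up of the S100 transcripts shifted with stage. The 10 genes together held 1471 to 2079 counts per litter at E12.5 and 3222 to 6248 at P0, or 251 to 417.5 CPM and 465 to 922 CPM. S100a6 took 3.37% to 11.5% of these counts at E12.5 and 22.1% to 27.7% at P0. S100a10 took 28.6% to 54.2% at E12.5, with NPD4 the highest, and 13.7% to 27.2% at P0, and S100a16 took 4.76% to 8.92% and 1.14% to 3.10%. For each of these 3 genes the shares at the stages did not overlap. The share of S100a11 overlapped, at 23.1% to 35.8% against 20.4% to 38.5%, and so did that of S100b, at 5.79% to 12.7% against 12.6% to 23.0%. Neither S100a10 nor S100a16 was called lower in abundance, and shares of 1 total move together.

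**Figure D3:**
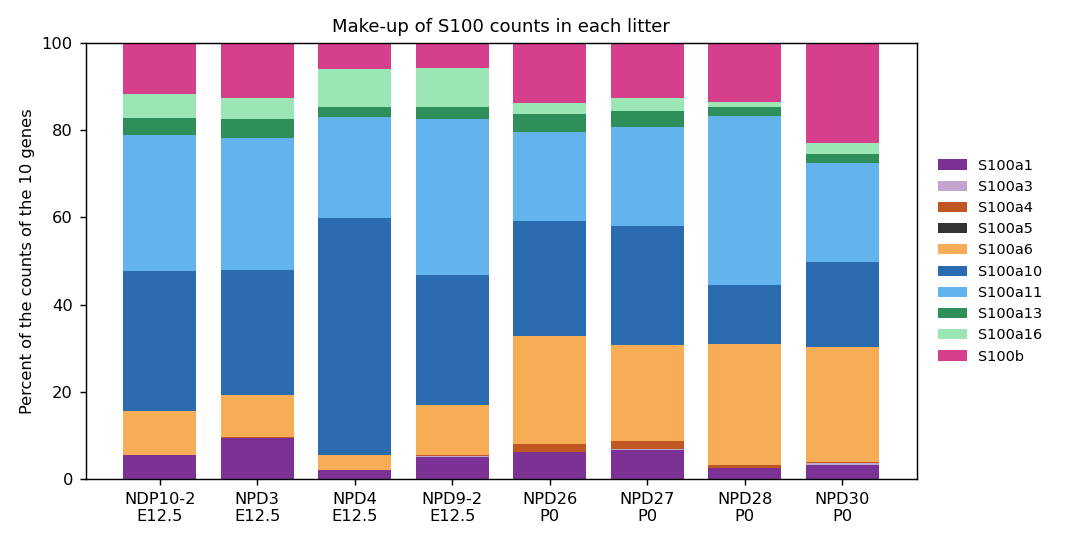
Percent of the counts of the 10 S100 genes (vertical axis) that each gene took in each of the 4 E12.5 and 4 P0 litters (bars). The orange block of S100a6 covers between 3.37% and 11.5% of the E12.5 bars and between 22.1% and 27.7% of the P0 bars, and the dark blue block of S100a10 is largest in NPD4, at 54.2%.

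The litters of a stage were not alike in these genes. At E12.5, NPD4 was the lowest litter for 5 of the 8 genes tested (S100a1, S100a6, S100a11, S100a13 and S100b) and the highest for S100a10. It was also the litter with the most neural and the least notochord and chondrocyte RNA. Leaving it out changed no call among the 8 genes. At P0, NPD27 was the lowest litter for S100a6, S100a11 and S100b, and NPD30 the highest for S100a6 and S100b. S100a4 went the other way, falling to its lowest P0 value in NPD30, the litter with the fewest leukocyte and macrophage transcripts. S100a11 was highest in NPD28, where the 10 neutrophil markers, S100a8 and S100a9 among them, summed to 7418 CPM, against 855 to 1113 CPM in the other P0 litters. Without NPD28 its log2 fold change was the lowest of the 8 fits, at 0.56 (adjusted p = 0.289). The part of neutrophils in that value was not tested.

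**Figure D4:**
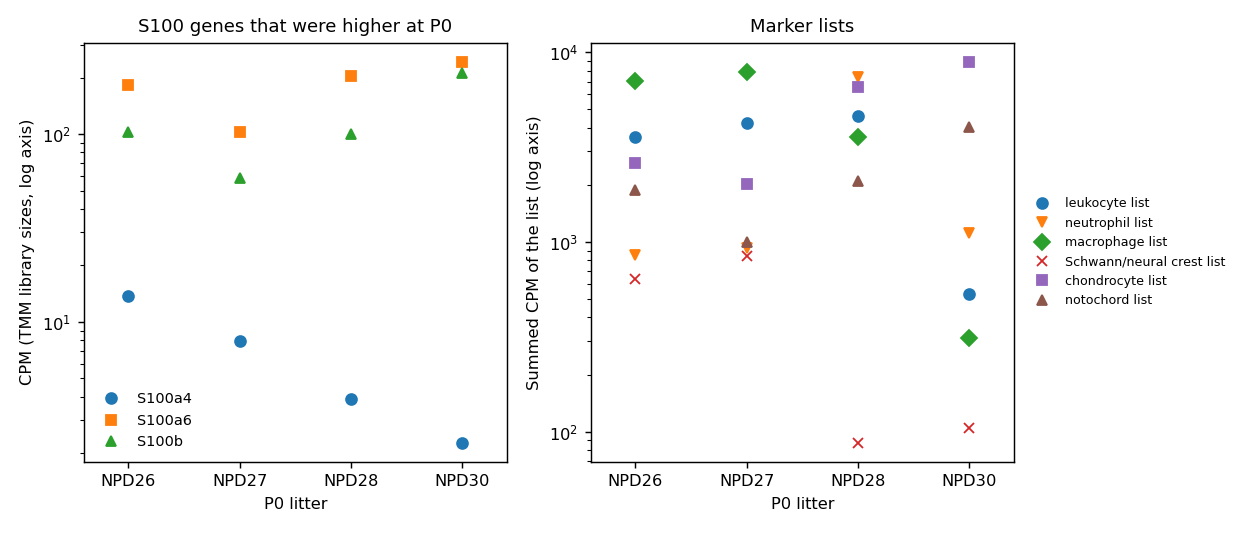
Abundance in each P0 litter (horizontal axis) of S100a4, S100a6 and S100b (left, CPM on TMM library sizes) and of 6 marker lists (right). The lists are given as summed CPM on total gene counts. Both vertical axes are log, and each point is 1 litter. S100a4 is lowest in NPD30, at 2.27 CPM, as are the leukocyte (534 CPM) and macrophage (310 CPM) lists, while S100a6 and S100b are highest there, at 243 and 212 CPM.

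Few genes near the members on chromosome 3 were abundant enough to test. Between the outermost members of the cluster (chr3:90511034-93564643) 99 other genes were counted, many of them genes of the skin barrier, of which 60 had a count in any litter and 5 were abundant enough to test. S100a8 and S100a9 were higher at P0, and the other 3 (Gm9774, Gm4202 and Tchh) did not pass. Directly before the cluster, Ilf2, an RNA-binding factor, was lower at P0 (log2 fold change -1.08, adjusted p = 0.0037) and Snapin, a protein of vesicle release, was higher (1.0, adjusted p = 0.00685), while Chtop did not pass (-0.27, adjusted p = 0.336).

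For the 4 most abundant members (mean log2 CPM 5 or more), the tested genes with the closest profile over the 8 litters were sought, by the root mean square difference in log2 CPM after centring. For S100a6 they were Col5a3 (0.34), a fibrillar collagen chain, Vamp5 (0.34), a vesicle protein, and Tfr2 (0.35), a transferrin receptor. For S100b they were St3gal4 (0.19), a sialyltransferase, Angptl1 (0.20) and Rell1 (0.21). S100a11 was nearest to Zfp930 (0.21), Acadvl (0.23) and Npnt (0.23), the integrin ligand nephronectin, and S100a10 to Dhps (0.12), Arl2 (0.15) and Hcfc1r1 (0.15). The flat profile of S100a10 was thus matched more closely than the steep one of S100a6.

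Of the remaining family, S100a8 and S100a9, the calprotectin subunits carried by neutrophils, were the only ones abundant enough to test. S100a8 ranged from 0.708 to 3.12 CPM at E12.5 and from 146 to 1469 CPM at P0 (log2 fold change 8.01, adjusted p = 0.000635), and S100a9 from 0.236 to 3.71 and from 247 to 2241 CPM (8.47, adjusted p = 0.000639). Both were highest in NPD28, as was S100a11 but not S100a4, S100a6 or S100b. Without NPD28 the log2 fold changes of S100a8 and S100a9 were 6.46 and 6.99.

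Genes for known partners of S100 proteins moved in both directions. Of 27 partner genes listed, 24 were tested, of which 7 were higher at P0, 3 were lower and 14 did not pass, with a median log2 fold change of 0.40. Over all genes tested 16% were higher and 12% lower, with a median of 0.04. Among the annexins, Anxa1, the partner of S100a11 and an inhibitor of inflammation, was at 3.75 to 10.3 CPM at E12.5 and 141.5 to 430 CPM at P0 (log2 fold change 5.19, SE 0.45, adjusted p = 7.91e-05). Anxa11, the partner of S100a6, was at 0.195 to 2.95 and at 12.1 to 45.4 CPM (log2 fold change 4.19, SE 0.72, adjusted p = 0.00209), and its value was 3.60 without NPD28 and 4.87 without NPD9-2. Both were raised without overlap of the litters. Anxa2, with which S100a10 forms its tetramer, was far more abundant, at 198.5 to 373 CPM and at 328 to 592 CPM, and did not pass (log2 fold change 0.61, 95% interval -0.01 to 1.22, adjusted p = 0.131). Anxa6 did not pass either (log2 fold change 0.07, adjusted p = 0.869). Neither gene of the annexin A2 and S100a10 tetramer thus had a call.

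Of the 9 intracellular partners, Dlc1, a tumour suppressor bound by S100a10, was lower at P0 (log2 fold change -1.38, SE 0.34, adjusted p = 0.0115). With NPD30 as the only P0 litter its log2 fold change was -0.78. The other 8 did not pass. These included the S100a6 partner Cacybp (0.53, adjusted p = 0.181) and the S100a4 partner Myh9, the heavy chain of non-muscle myosin IIA (0.85, adjusted p = 0.228). Myh9 was at 144 to 395 CPM at E12.5 and at 218, 327, 1020 and 347.5 CPM in NPD26, NPD27, NPD28 and NPD30, so that a single litter carried its high mean. Ahnak, a large scaffold held by S100a10 and annexin A2, had a value of 0.14 (adjusted p = 0.855). The rise of S100a4 and S100a6 was thus not matched by a call for these partners.

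Of the 8 channels and pumps, the ryanodine receptors, calcium release channels that S100a1 binds, were both lower at P0. Ryr1 was at 94.4, 54.1, 18.1 and 77.5 CPM in NDP10-2, NPD3, NPD4 and NPD9-2, and at 5.50, 15, 2.12 and 2.58 CPM in NPD26, NPD27, NPD28 and NPD30. The litters did not overlap, and the log2 fold change was -3.27 (SE 0.70, adjusted p = 0.00656). It was -4.16 without NPD27, the highest P0 litter, and the call was lost without both NDP10-2 and NPD9-2 (-2.56, adjusted p = 0.0644). For Ryr2 it was -1.18 (SE 0.40, adjusted p = 0.0481), a call that held in 3 of 8 fits with a litter left out. Atp2a2, the SERCA pump, had a value of -0.07 (adjusted p = 0.844). Kcnk3, a potassium channel carried to the membrane by S100a10, was higher (1.69, SE 0.47, adjusted p = 0.0217), though not without NPD3 (adjusted p = 0.0626) or NPD30 (adjusted p = 0.0601). Scn10a, a sodium channel bound by S100a10, was at 1.48 to 2.15 CPM in 3 E12.5 litters but at 53.2 CPM in NPD4, and at 99.4 to 139 CPM at P0. With all litters, Scn10a did not pass in the main edgeR test (2.95, adjusted p = 0.0591) or in edgeR with upper quartile normalization (adjusted p = 0.0669). It did pass with all litters in limma-voom (4.23, adjusted p = 0.00801) and in DESeq2 (2.98, adjusted p = 0.038), so its call depends on the method. In edgeR it passed without NPD4 (6.02, adjusted p = 1.69e-05), the litter high in neural markers. The part of neural cells in the Scn10a of that litter was not tested.

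Of the 3 genes of S100a13-linked release, both that were tested were higher at P0. Fgf1 was at 2.30 to 5.27 CPM at E12.5 and at 62.2 to 157 CPM at P0 (log2 fold change 4.57, SE 0.41, adjusted p = 8.69e-05), and passed in 8 of 8 fits with a litter left out. Syt1, a calcium sensor of vesicle fusion that joins the release complex, was at 8.59 to 37.8 and at 44.6 to 73.4 CPM (1.83, SE 0.48, adjusted p = 0.0176), and its call was lost without NDP10-2, NPD3 or NPD9-2, at adjusted p values of 0.0521, 0.0521 and 0.0551. Without NPD4, which held 37.8 CPM of Syt1 against 8.59 to 9.84 in the other E12.5 litters, the log2 fold change was 2.68 (adjusted p = 0.000172). Il1a, the other cargo, did not pass the filter. It had no count at E12.5, and 137, 139 and 67 counts in NPD26, NPD27 and NPD28 against 1 in NPD30, the P0 litter lowest in leukocyte markers. S100a13 itself did not pass, as given above.

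Among the receptors, Ager, which codes for the RAGE receptor of released S100 proteins, was low at both stages, at 4.11 to 14.2 CPM and 2.12 to 5.65 CPM, and did not pass (-0.70, SE 0.52, 95% interval -1.84 to 0.44, adjusted p = 0.348). Tlr4, a receptor of the S100a8 and S100a9 dimer, was higher at P0, at 58.5, 88.1, 63.8 and 17.3 CPM in NPD26, NPD27, NPD28 and NPD30 against 1.37 to 4.43 CPM at E12.5 (4.41, SE 0.53, adjusted p = 0.000407). With NPD30 as the only P0 litter the log2 fold change of Tlr4 was 2.73. Plgrkt, a plasminogen receptor that works with S100a10, was at 72.0, 56.4, 32.1 and 21.2 CPM in the same P0 litters against 13.3 to 19.95 CPM at E12.5 (1.41, SE 0.37, adjusted p = 0.0148). Its call was lost without NPD3 (adjusted p = 0.0531), and with NPD30 alone its value was 0.35.

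**Figure D5:**
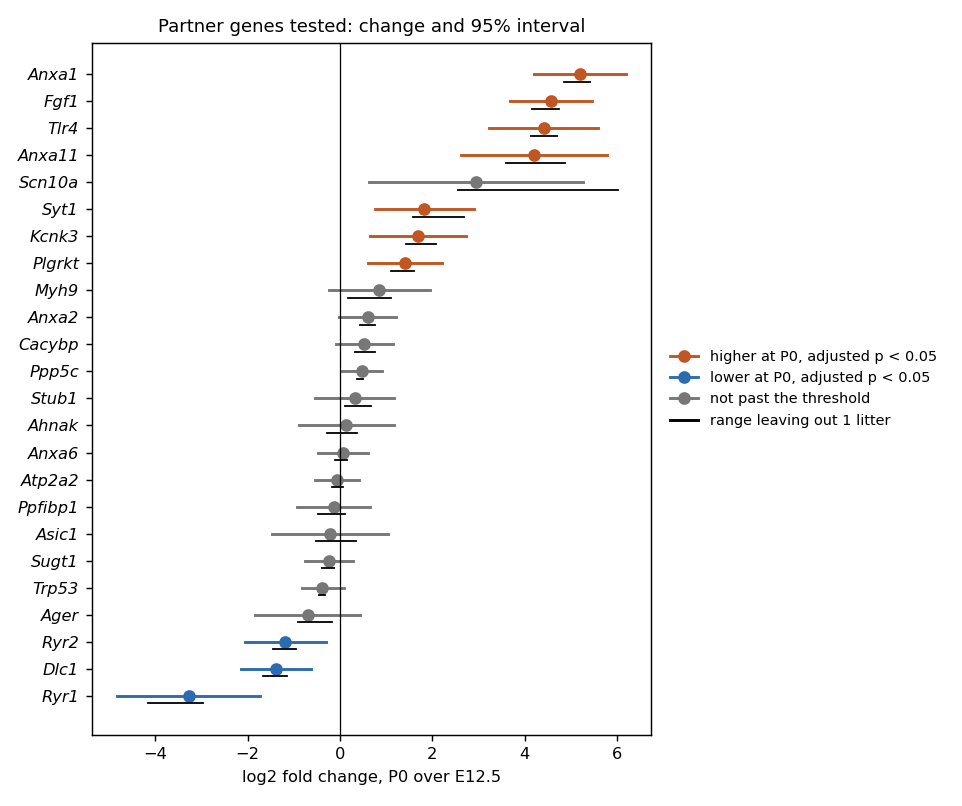
Log2 fold change of P0 over E12.5 (horizontal axis) for the 24 partner genes tested, with points for the edgeR estimate, coloured bars for its 95% interval and thin black bars for the range when each of the 8 litters was left out in turn. Anxa1, Fgf1, Tlr4 and Anxa11 lie above 4, Ryr1 lies at -3.27, and the black bar of Scn10a reaches 6.02.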

How the data were processed

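RNA-Seq was performed on 4 pooled litters per stage. The authors aligned the reads with STAR 2.4.0j to GRCm38.p3 and used htseq-count with the Gencode M4 annotation. They deposited raw counts per gene and litter, without normalization. The strand setting of the counting is not given in the sources used here. Of all reads tallied, 65.2% to 77.4% were not counted on a gene, and these tallies were left out. Symbols were matched for 42462 of 43346 identifiers. Positions and exon lengths come from Gencode M21 on GRCm38, a later annotation than the one counted on, and promoters from RefSeq (GRCm38.p6), with entries for 9 of the 10 genes.

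Counts were analysed in R 4.3.3 with edgeR 4.0.16: filterByExpr (minimum count 10, minimum total 15), which asks for 1.54 CPM in enough litters, TMM normalization, robust dispersions and the quasi-likelihood F-test of P0 against E12.5 over 15467 genes, adjusted by Benjamini-Hochberg. Calls were made at an adjusted p of less than 0.05. CPM of genes use TMM library sizes, log2 CPM a prior count of 2, and 95% intervals the moderated degrees of freedom. Sums of marker lists use CPM on total gene counts, without TMM. Stage was taken from the labels. All litter pairs of a stage differed beyond sampling noise (chi-square per degree of freedom 14.1 to 104), so each was counted once. The method was tested on simulated data. Alternatives were DESeq2 1.42.0, limma 3.58.1 (voom), other normalizations, filters and libraries, each litter left out in turn, and the fit without both NDP10-2 and NPD9-2. One alternative, NPD30 as the only P0 litter, was chosen after seeing the data.

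The genes named were the 10 members, the rest of the S100 family, 27 listed partner genes, the 3 nearest profiles of each member whose mean log2 CPM was 5 or more, and the chromosome 3 neighbours, of which those after the cluster are not reported here. Members, partner lists and marker lists were chosen with earlier results of these data known. The motifs were TATAAA for the TATA box core, TGANTCA for AP-1, GGGCGG for the GC box and CCAAT for the CCAAT box. They were sought on both strands from 250 bases before to 50 after the RefSeq start, and none of the matches in capitals overlapped another. Reads that htseq-count tallied as ambiguous, which is 1 part of the reads not counted on a gene, were 10.6% to 17.5% of the tally at E12.5. At P0 they were 7.07% to 10.5%. Immunohistochemistry was not analysed here.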

Additional observations from a re-analysis of the deposited data

Results flagged for a closer look

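Among 64 groups of 4 litters (each member and partner gene tested, at each stage), 6 held a litter set far apart from the other 3, and chance alone flags about 1 in 20 groups. None of the 6 was one of the 10 S100 genes. At P0, Myh9 was at 1020 CPM in NPD28 against 218 to 347 CPM in the others, Atp2a2 at 110 CPM in NPD26 against 159 to 167 CPM, and Ppp5c at 53.9 CPM in NPD26 against 56.4 to 56.5 CPM, a small distance in a tight group. At E12.5, NPD4 held 53.2 CPM of Scn10a against 1.48 to 2.15 CPM and 37.8 CPM of Syt1 against 8.59 to 9.84 CPM. Ager was at 14.2 CPM in NDP10-2 against 4.11 to 5.07 CPM.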

How the results depend on the processing

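The count of 3 members higher at P0 remained 3 with each litter left out (3 to 3) and was 2 to 4 over the other alternatives, and no member was lower in any of them. Among alternatives with more than 1 litter per stage, S100b lost its call without NDP10-2 and NPD9-2 (2.16, adjusted p = 0.0548). In the same alternatives, S100a11 gained a call without a filter (0.85, adjusted p = 0.042). With NPD30 as the only P0 litter the log2 fold change of S100a4 was 2.19, against 3.78 with all litters, in a fit without spread between P0 litters. Over the 9 alternatives that kept all litters, the log2 fold change ranged from 2.4 to 2.85 for S100a6 and from 1.79 to 1.95 for S100b, and over 8 from 3.59 to 3.79 for S100a4, which a filter of 10 counts in every sample removes. No direction reversed for any member. Upper quartile normalization moved the median of all genes from 0.04 to -0.11, and members are to be read relative to it under that scaling. The 7 partner genes higher at P0 became 4 with a filter of 10 counts in every sample, which tests fewer genes, and 4 with NPD30 as the only P0 litter. They ranged from 5 to 9 with a litter left out. The 3 lower became 1 without NDP10-2 and NPD9-2 and 1 with NPD30 alone, which leave fewer samples, and ranged from 2 to 3 with a litter left out. Genes called over the whole table fell from 4321 to 2581 and 1054 under these alternatives. With 1 P0 litter, that litter is assumed to vary like the E12.5 litters. DESeq2 gave no adjusted p for S100a8 and S100a9, and a filter of 10 counts in every sample removed both. No paired analysis was possible because the litters carry no shared number. Depth limits S100a3, S100a5 and the E12.5 levels of S100a4 and Anxa11.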

Other observations

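The other S100 genes were too low to test. S100a7a, a skin antimicrobial member, had 20 counts in NPD28, 21 in NPD30 and 0 to 2 in the other 6 litters. S100g, the calbindin of gut and kidney, had 23 counts in NPD4 and 0 to 6 elsewhere. S100a14, an epithelial member, had 0 to 7 counts per litter, S100a2 had 2 counts in NPD28 and none elsewhere, and S100z had none.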
